A study of Homo sapiens with 18 samples.

Results

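BE2C cells carrying the lentiviral hairpin shAhR-1, directed at AHR, were compared with BE2C cells carrying the empty pLKO vector, 3 ATAC-seq libraries each and 6 of the 18 libraries in the series. BE2C is an established human neuroblastoma cell line, and the series title places the study in neuroblastoma with MYCN amplification. The libraries were chosen by cell line and construct alone. Cells of both groups grew in the same serum-supplemented medium, and every library was made from the same number of cells, with 30 min of transposition at 37 °C and 10 PCR cycles. The labels give no time after transduction and no measure of AHR loss, and they do not say that the triplicates were separate cultures. The spread between libraries may therefore be technical, and p-values measure that spread alone.

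AHR encodes the aryl hydrocarbon receptor, a transcription factor of the bHLH-PAS family that waits in the cytoplasm with chaperones until a ligand binds. It then enters the nucleus, pairs with ARNT and binds enhancers of detoxification genes such as CYP1A1. ATAC-seq reads open chromatin, since a transposase cuts where nucleosomes leave DNA free, and peaks mark promoters, enhancers and insulators. The title names AhR as a factor in dedifferentiation, the loss of a mature neuronal state, so the comparison asks which open sites appear or disappear when AHR is targeted.

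At lists of equal length, 569 regions carried a peak in all 3 shAhR-1 libraries and in no pLKO library (gained), and 700 carried the reverse (lost). These were 1.46% and 1.80% of the 38881 regions. Both sets consisted of scattered peaks that were narrower and weaker than those at regions open in all 6 libraries. The rule itself favours weaker peaks, since these are most easily missing from the lists of the other group. Gained regions lay farther from the regions open in all 6 libraries, with a median of 67.2 kb, than lost regions, with 29.6 kb. Libraries of Kelly, another neuroblastoma line, played no part in choosing the regions. With Kelly lists cut to 9204 peaks, 8.90 ± 0.710% of the gained regions had a peak with shAhR-1 and 2.75 ± 0.366% with pLKO (SD, n = 3 each). With full Kelly lists, which differ in length, the shares were 27.7 ± 15.6% and 26.9 ± 12.6%.

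The lists themselves did not separate the groups. On chromosomes 1 to 22 and X, the shAhR-1 libraries held 45023, 27140 and 25660 peaks (replicates 1, 2 and 3), and the pLKO libraries held 34343, 36525 and 44397. The highest and the lowest of the 6 were both shAhR-1 libraries. The means were 32608 ± 10777 with shAhR-1 and 38422 ± 5289 with pLKO (SD, n = 3 each), a log2 ratio of -0.28 (two-sided exact permutation test, p = 0.4, adjusted p = 0.6 over 3 measures). Covered length was 19.98 ± 7.41 Mb with shAhR-1 and 22.9 ± 5.30 Mb with pLKO (exact permutation test, p = 0.4, adjusted p = 0.6, n = 3 each). With 3 libraries against 3, the smallest p that 20 arrangements allow is 0.1.

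**Figure D1:**
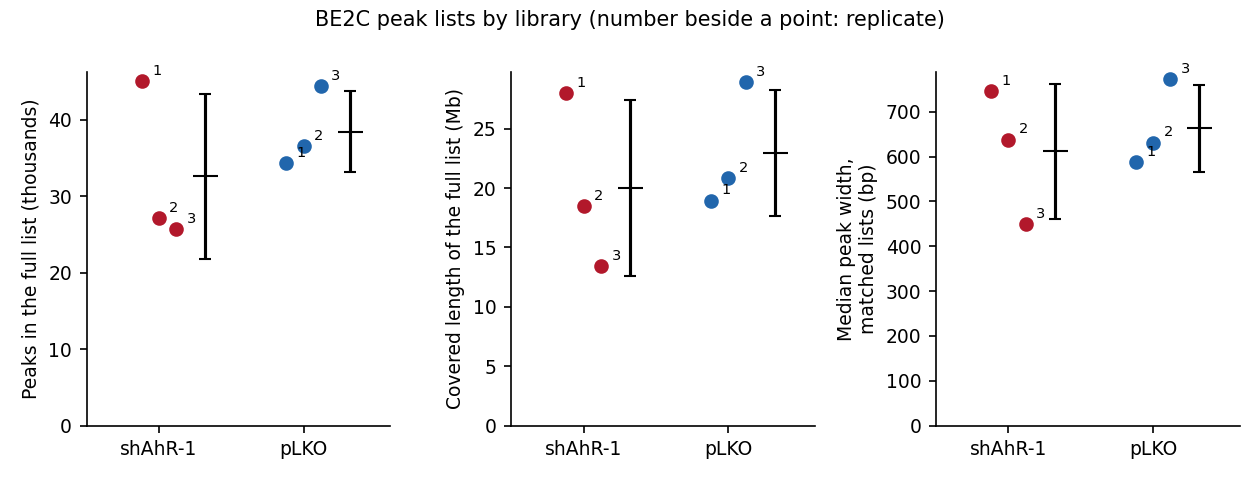
Peaks per full list, covered length (Mb) and median peak width at matched length (bp) for the 3 shAhR-1 and 3 pLKO libraries of BE2C, with the mean and SD beside the points. The shAhR-1 libraries span from 25660 to 45023 peaks and enclose all pLKO libraries, and the replicate 3 library has the shortest list and the narrowest peaks.

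For an equal footing, only the 25660 peaks with the highest −log10 p were kept in each library, as many as the shortest list held, that of shAhR-1 replicate 3. The weakest peak kept had a −log10 p of 11.7, 5.08 and 3.68 in the shAhR-1 libraries and of 7.13, 8.21 and 12.7 in the pLKO libraries. The same length thus reached weaker peaks in shAhR-1 replicates 2 and 3 than in the other 4 libraries. The lowest background implied by each library's folds and p-values, a stand-in for sequencing depth, was 1.64, 1.75 and 1.41 overlapping reads with shAhR-1 and 1.51, 1.495 and 1.86 with pLKO, so the groups overlapped.

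Median peak width at matched length was 746, 638 and 450 bp in the shAhR-1 libraries and 587, 631 and 772 bp in the pLKO libraries. The group means of 611 ± 150 and 663 ± 96.6 bp did not differ beyond the spread (SD, n = 3 each; exact permutation test, p = 0.7, adjusted p = 0.7). The sign of the difference rested on single libraries: the shAhR-1 mean was 28.3 bp above that of pLKO without shAhR-1 replicate 3 and 2.33 bp above it without pLKO replicate 3. Covered length also changed sign without shAhR-1 replicate 3, to a log2 ratio of 0.02.

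Of the 38881 regions formed by merging overlapping peaks of the 6 equal-length lists, 16181 (41.6%) had a peak in all 6 libraries. A peak in a single shAhR-1 library and no pLKO library marked 5936 regions, and a single pLKO library with no shAhR-1 library marked 3309. The next step towards a gain, a peak in 3 shAhR-1 libraries and 1 pLKO library, held 560 regions, close to the 569 gained ones. The matching step towards a loss, 1 shAhR-1 library and all 3 pLKO libraries, held 1147 regions.

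**Figure D2:**
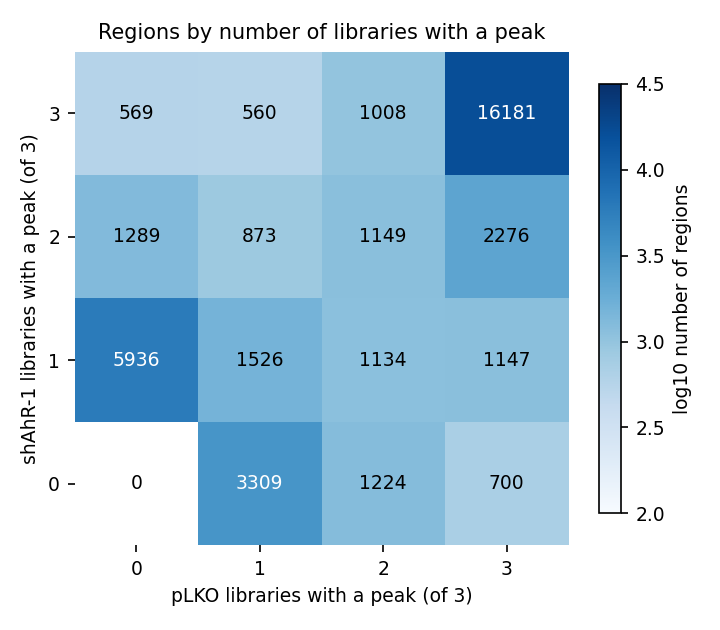
Number of regions for each combination of shAhR-1 libraries (vertical axis) and pLKO libraries (horizontal axis) with a matched-length peak; colour gives the log10 number. The 569 gained regions are at the upper left, the 700 lost regions at the lower right and the 16181 shared regions at the upper right.

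The counts moved with the libraries used. Leaving out 1 library loosens the rule, since fewer libraries must have or lack a peak. All such counts lay above those of the full set, and the rise alone says nothing of any single library. Regions chosen without shAhR-1 replicate 1, 2 or 3 numbered 975, 883 and 1181 gained. Lost regions numbered 1361 without shAhR-1 replicate 1, 1186 without pLKO replicate 1 and 1124 without pLKO replicate 2. Without shAhR-1 replicate 3, the library with the shortest list, gained regions outnumbered lost ones, 1181 against 992. The sign of the difference between the counts thus rested on that library. The balance also moved with the lists used: full lists gave 169 gained and 887 lost regions, full lists limited to a −log10 q of 5 or above gave 78 and 641, and a peak covering 50% or more of the region gave 323 and 669.

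Many of the changes were shifts across the list threshold. Of the 569 gained regions, 199, 261 and 446 had a weaker peak in the full lists of pLKO replicates 1, 2 and 3, and 81 (14.2%) had no peak in any of them. Of the 700 lost regions, 474 and 37 had a weaker peak in the full lists of shAhR-1 replicates 1 and 2, and 219 (31.3%) had no peak in any shAhR-1 list. The list of shAhR-1 replicate 3 was already at full length and could hold no weaker peak. The longer a full list of the other group, the more of the changed regions had a weaker peak in it.

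Gained and lost sites belonged to the weaker part of each list. The rule favours this, since lists were cut by the same −log10 p that gives the ranks. A peak near the cut is more easily missing from the other group, and presence in all 6 lists favours strong peaks. Low rank is thus no independent trait of these sites. Within the shAhR-1 libraries, peaks at gained regions had median ranks of 19373, 17870 and 18141 of 25660, and 17, 38 and 22 of them were among the strongest 10000. Within the pLKO libraries, peaks at lost regions had median ranks of 18764, 19428 and 19620, with 19, 14 and 15 among the strongest 10000. At regions shared by all 6 libraries the median ranks lay between 8231 and 8519. The authors give each peak a fold over local background, which had medians of 7.36, 5.10 and 4.68 at gained regions with shAhR-1, against 9.50, 6.57 and 6.42 at the shared regions of the same libraries.

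Peaks at changed sites were narrow, which the choice of weak peaks by the rule may bring with it. With shAhR-1, gained peaks had a median width of 612, 504 and 322 bp, where the shared peaks of the same libraries measured 877, 771 and 601 bp. With pLKO, lost peaks had a median width of 361, 404 and 547 bp, where the shared peaks measured 737, 767 and 896 bp. The order of the libraries was the same for changed and shared peaks, so gained and lost widths cannot be set against each other across libraries. After merging, the median region was 706 bp for gained and 606 bp for lost sites, against 1038 bp for shared ones, which join peaks from more lists. Regions wider than 1 kb were 11.8% of gained and 8.29% of lost regions, against 55.1% of the shared ones. Over all regions the median width was 729 bp, with a lower quartile of 441 bp, and 27.2% were wider than 1 kb. The median gained region was thus close in width to the median of all regions.

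Gained and lost regions differed in position. Of the gained regions, 62.0% lay within 100 kb of the nearest region open in all 6 libraries (95% Wilson interval 58.0 to 65.9%), against 83.0% of the lost regions (80.0 to 85.6%) and 76.5% of all regions. These intervals cover counting error only, and regions are not replicates. Within 10 kb the shares were 9.14% of gained, 22.4% of lost and 15.1% of all regions, and beyond 500 kb they were 3.51%, 1.00% and 2.13%. Chosen without any single library, the gained regions lay at 63.8% to 67.8% within 100 kb and the lost ones at 82.7% to 85.1%. Other rules moved both shares: they were 40.2% of gained and 65.3% of lost regions where a peak had to cover 50% or more of the region, and 72.2% and 86.6% with full lists. Such rules can also change which regions count as open in all 6 libraries. Shares under different rules are thus not strictly like for like. The local background under the peaks, relative to the genome-wide one, had medians of 1.45, 1.303 and 1.10 at gained regions with shAhR-1 and 1.55, 1.49 and 1.71 at lost regions with pLKO.

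**Figure D3:**
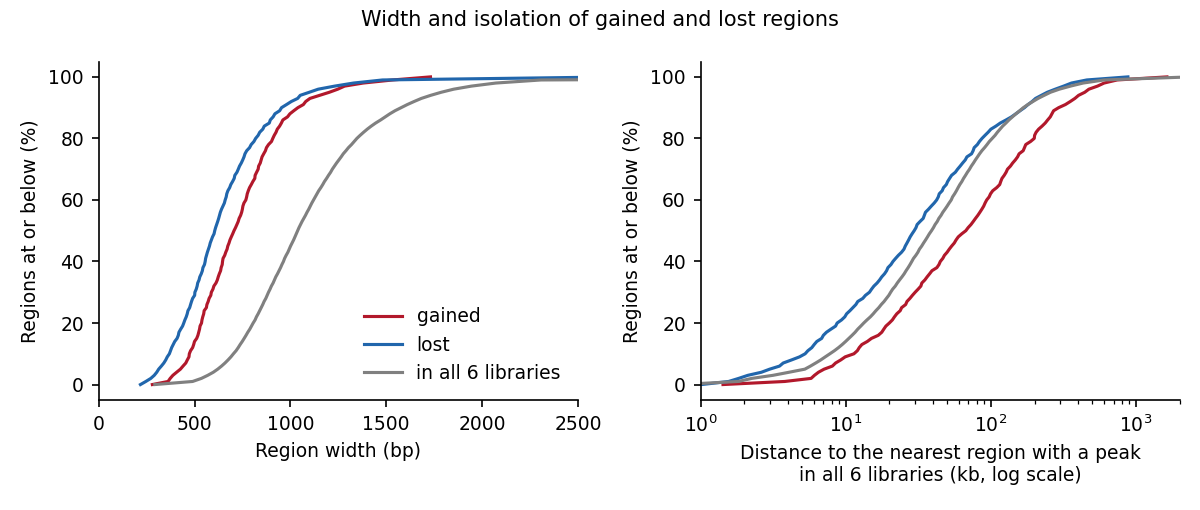
Cumulative percentage of gained, lost and shared regions by region width (bp, left) and by distance to the nearest region with a peak in all 6 libraries (kb, log scale, right). Both changed sets are narrower than the shared regions, and the gained curve lies to the right of the lost curve in distance, with medians of 67.2 and 29.6 kb.

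Changed regions were spread over all 23 chromosomes. Chromosome 4 held 43 gained regions, 7.56% of them, against 5.24% of all regions. Chromosomes 17 and 19, both rich in genes, held 8 and 10 gained regions, 1.41% and 1.76% of them, against 3.51% and 3.67% of all regions. Among lost regions, chromosome 6 held 19, or 2.71% against 5.55% of all regions, and chromosome 19 held 14, or 2.00%. These chromosomes were picked after their values were seen, and no test was made.

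Clusters of changed regions were few and small. Under 100 kb from another of their set lay 63 gained and 119 lost regions. The single run of 3 gained regions was at chr3:188794083-188857718. The longest run of lost regions had 5 members at chr12:54499988-54701337, followed by 4 at chr1:232688774-232841259. Chromosome 12 from 50000001 to 60000000 was also the window of 10 Mb with most lost regions, 11 among its 258 regions.

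An amplified stretch was visible in the local background. A set window on the short arm of chromosome 2, where MYCN is located, was searched for peaks with a local background at least 20 times the genome-wide one. Within it they lay between 16083281 and 16602550. Such peaks numbered 219, 185 and 281 genome-wide with shAhR-1, of which 36, 32 and 41 were in this stretch. With pLKO they numbered 247, 256 and 195, of which 55, 57 and 35 were in it. Most thus lay elsewhere. The peaks in the stretch had a median background of 89.1, 102 and 104 times the genome-wide value with shAhR-1. With pLKO it was 111, 96.1 and 89.3 times, so the groups overlapped. The stretch held 90 regions, 29 of them with a peak in all 6 libraries, and 0 gained and 0 lost regions. Over all regions the shares were 1.46% and 1.80%, so few would fall in 90 regions at those shares and nothing is read from the zeros. Marker genes of the sympathetic lineage were not examined, as gene positions on hg19 were not used here.

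The leading gained sites were absent from every full pLKO list. Calls and folds at named sites are from full lists unless cut lists are mentioned. At chr5:122990627-122990932 the shAhR-1 peaks had folds of 12.5, 10.1 and 12.03 (replicates 1, 2 and 3). This site was called in 1 of 3 BE2C shAhR-2 libraries, with a fold of 5.72, but in Kelly it was called in 2 shAhR-1 libraries, all 3 shAhR-2 libraries and 2 pLKO libraries, with folds between 11.6 and 18.9. It was thus called in Kelly in each condition. At chrX:135686790-135687590 the shAhR-1 folds were 9.37, 7.86 and 7.72, and the BE2C shAhR-2 folds of 8.78, 9.31 and 8.14 were of similar size. In Kelly this site was called in 1 shAhR-1 and 1 shAhR-2 library, with folds of 3.75 and 3.83, and in no pLKO library.

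Some of the other leading gains were also called with shAhR-1 in Kelly. Of the 10 named gains, 5 had a peak in more full Kelly shAhR-1 than pLKO lists, 0 in fewer and 5 in equal numbers. At chr11:91494575-91495255 the BE2C shAhR-1 folds were 9.28, 6.08 and 6.22, and Kelly shAhR-1 replicates 2 and 3 had folds of 8.67 and 9.09. At chr1:233392094-233392611 the BE2C folds were 8.59, 7.32 and 6.40, and the same Kelly libraries had 5.55 and 6.37. Neither site had a peak in any pLKO library of either line or in any Kelly shAhR-2 library, while all 3 BE2C shAhR-2 libraries had one at both. The remaining named gains were chr4:156162755-156163238, chr4:153939800-153940518, chr15:96731011-96731680, chr17:53690193-53690721, chr4:65634512-65634968 and a site on chromosome 8. Over the 10 sites the folds in the shAhR-1 libraries ran from 5.81 to 12.5, and 3 of the 10 were on chromosome 4.

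Over the 10 leading lost sites the folds in the pLKO libraries ran from 7.45 to 13.0. At chr13:110359362-110360125 no shAhR-1 library of BE2C had a peak, and the pLKO folds were 8.46, 8.13 and 10.6. In Kelly the site was called in 1 shAhR-1 library with a fold of 3.97 and in all 3 pLKO libraries with folds of 6.42, 4.70 and 9.02. The BE2C shAhR-2 libraries all had a peak, with folds of 6.59, 6.48 and 5.61. At chr2:197264458-197265358 no shAhR-1 library of BE2C had a peak, shAhR-2 replicates 1 and 3 had weak ones with folds of 3.76 and 3.53, and the pLKO folds were 8.87, 9.36 and 8.04. No library of Kelly had a peak there.

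A pair of lost sites lay side by side on chromosome 20. At chr20:352206-353081 no shAhR-1 library had a peak, shAhR-2 replicate 3 alone of its group had one with a fold of 2.76, and the pLKO folds were 8.69, 8.02 and 8.18. At chr20:342863-343703 no shAhR-1 library had a peak, shAhR-2 replicate 3 alone had one with a fold of 4.23, and the pLKO folds were 8.36, 7.93 and 8.92. By contrast, chr5:55945438-55945746 had no peak with shAhR-1, folds of 11.4, 10.7 and 8.33 with shAhR-2 and folds of 9.23, 7.93 and 12.4 with pLKO, so the peak was missing with one hairpin and present with the other. The other named losses were chr3:117475321-117475770, chr9:119157470-119158096, chr2:173913643-173914306, chr2:8231112-8231612 and chr1:2052894-2053534.

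**Figure D4:**
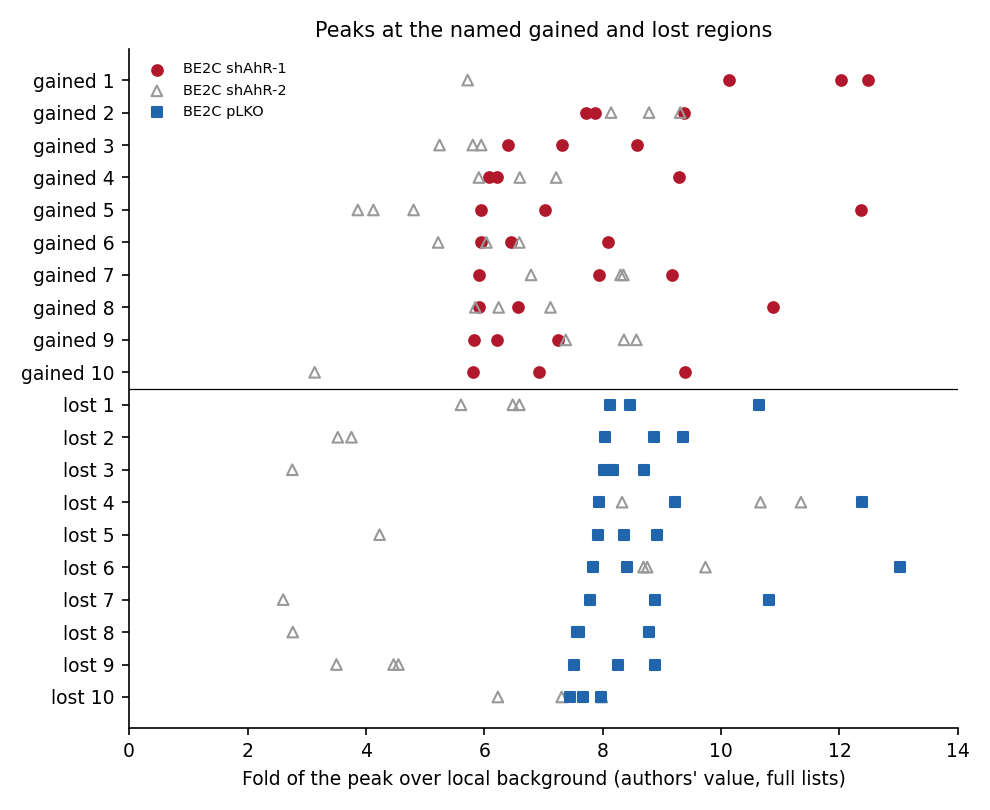
The authors' fold over local background in the full lists (horizontal axis) for the 10 named gained and 10 named lost regions in the BE2C shAhR-1, shAhR-2 and pLKO libraries; a missing point is a library with no peak. No pLKO point appears in the gained rows and no shAhR-1 point in the lost rows, which the choice of sites fixes, while shAhR-2 points appear in both.

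The second hairpin against AHR, shAhR-2, was set beside these regions. Its BE2C libraries were deeper, with 75798 to 81637 peaks and a background of 3.395 to 4.42 reads. The shAhR-2 lists, cut to the same 25660 peaks, had a peak at 44.1, 46.6 and 45.9% of the gained regions and at 32, 29.9 and 29.1% of the lost ones, against 62.0 to 62.4% of all regions. All 3 cut lists had a peak at 196 gained (34.4%) and 136 lost regions (19.4%), against 55.0% of all regions. None of them had one at 246 gained (43.2%) and 413 lost regions (59.0%), against 30.6% of all regions. Both sets were thus found less often than regions at large. The full shAhR-2 lists had a peak at 96.8, 96.3 and 97.5% of the gained regions and at 90.3, 89.3 and 89.3% of the lost ones. Over all regions the full-list shares were 92.4, 92.4 and 92.9%. The regions were chosen for absence or presence in the same pLKO libraries that shAhR-2 would be set against, so no test was made. The order in the cut lists was not stable either. Chosen without shAhR-1 replicate 1, the mean share of gained regions was 11.6 percentage points below that of lost regions. With all libraries it was 15.2 points above. Without shAhR-1 replicate 2 or 3 it was 5.86 and 8.45 points above, and without pLKO replicate 3 it was 24.2 points above.

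Kelly gave a check with no library in common. Kelly lists were cut to 9204 peaks, the length of the shortest shAhR-1 or pLKO list of that line. A peak lay in 9.67, 8.79 and 8.26% of the BE2C gained regions in the Kelly shAhR-1 libraries, against 2.64, 2.46 and 3.16% in the Kelly pLKO libraries. For the BE2C lost regions the shares were 2.00, 1.00 and 1.29% with shAhR-1, against 2.43, 2.43 and 2.86% with pLKO. In both sets the Kelly groups did not overlap, and each moved in the direction seen in BE2C. Over all regions the shares were 19.7, 22.6 and 22.6% with shAhR-1 and 23.1, 22.7 and 22.99% with pLKO, again without overlap. The higher share at gained regions thus went against a lower share over all regions. The lower share at lost regions went the same way as that of all regions. At lost regions the means were 1.43% with shAhR-1 and 2.57% with pLKO, against 21.6% and 22.9% over all regions. Whether the fall at lost regions went beyond that of all regions was not tested.

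The share of gained minus the share of lost regions averaged 7.48 ± 0.439 percentage points in Kelly shAhR-1 libraries and 0.18 ± 0.139 in Kelly pLKO libraries (SD, n = 3 each), a difference of 7.29 points (two-sided exact permutation test, p = 0.1, the smallest that 20 arrangements allow). The test thus cannot pass 0.05, and the difference exceeded the spread within either group. The size depended on Kelly shAhR-1 replicate 1, whose short list set the length and whose background of 0.601 reads was the lowest of the series. Without it the lists held 19984 peaks, and the difference was 23.4 points. The gained regions were then open at 30.2 and 30.8% with shAhR-1 against 14.6, 13.0 and 15.1% with pLKO. Lost regions stood at 13.0 and 11.9% against 22.7, 15.6 and 20.4%. All regions stood at 44.1 and 44.1% against 45.7, 41.9 and 45.2%, so the groups overlapped there. With the BE2C regions chosen again without each BE2C library in turn, the difference lay between 4.40 and 6.90 points.

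With shAhR-2 in Kelly, backgrounds were higher at 2.56 to 2.91 reads. These lists, also cut to 9204 peaks, had a peak at 1.41, 2.81 and 1.93% of the gained regions. At the lost ones the shares were 1.00, 1.43 and 1.14%. The full lists had a peak at 60.5, 52.0 and 57.6% of gained and 55.3, 47.7 and 55.1% of lost regions. Over all regions the full-list shares were 73.1, 68.6 and 72.8%. In the cut lists the gained shares did not exceed those of the Kelly pLKO libraries beyond the spread and lay below all 3 shAhR-1 values. The labels give no batch, so the hairpin and any shared handling of the shAhR-1 libraries of both lines cannot be told apart.

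**Figure D5:**
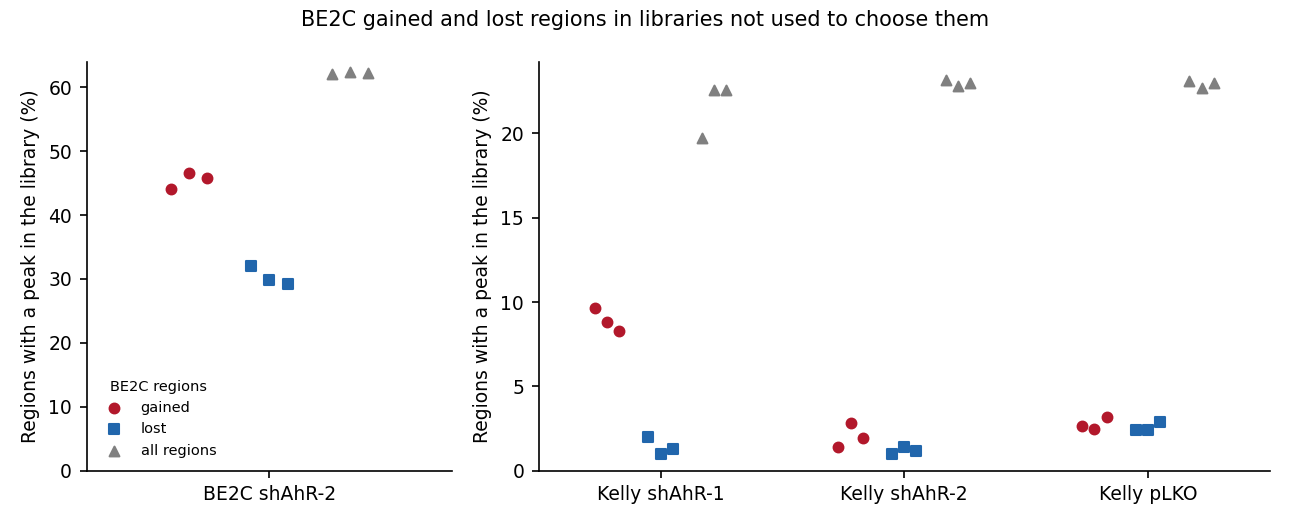
Percentage of BE2C gained, lost and all regions with a matched-length peak in libraries that did not choose them: BE2C shAhR-2 (left) and Kelly shAhR-1, shAhR-2 and pLKO (right), 1 point per library. The gained regions stand at 8.26 to 9.67% in Kelly shAhR-1 libraries, against 1.41 to 2.81% with shAhR-2 and 2.46 to 3.16% with pLKO.

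Region by region, 77 gained regions had a peak in more Kelly shAhR-1 than Kelly pLKO libraries and 7 in fewer, while 475 had no peak in either. For lost regions these numbers were 15, 27 and 654. Over all 38881 regions they were 3366, 4488 and 25361. The full pattern of a gain, all 3 Kelly shAhR-1 libraries and no Kelly pLKO library, was found at 8 of the 569 gained regions (background 0.491% of all regions). The full pattern of a loss was found at 3 of the 700 lost regions (background 0.640%). The share of gained regions lay above its background and the share of lost regions below its own. A peak in any of these Kelly lists lay at 94 of 569 gained, 46 of 700 lost and 13520 of all 38881 regions. Changed regions were thus called in Kelly less often than regions at large. The backgrounds do not allow for this, and nothing is read from the lower share at lost regions.

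In the full Kelly lists the pattern was less complete: 7 of these 8 gained sites had a peak in at least 1 Kelly pLKO library, and all 3 lost sites had one in at least 1 Kelly shAhR-1 library. The sites described here were chosen after their values were seen, and the first is the single gained site with no Kelly pLKO peak. At chr3:85224818-85225835 the folds were 10.7, 8.11 and 7.47 with shAhR-1 and 3.98, 3.21 and 5.95 with pLKO in BE2C. In Kelly they were 4.997, 10.4 and 10.2 with shAhR-1, and no pLKO or shAhR-2 library had a peak. At chr6:145924241-145924968 the BE2C folds were 10.1, 6.51 and 6.95 with shAhR-1, against 4.41 and 6.59 in pLKO replicates 2 and 3, and in Kelly 4.997, 9.30 and 8.22 with shAhR-1, against 4.69 in pLKO replicate 1. All 3 Kelly shAhR-2 libraries also had a peak there, with folds from 7.62 to 8.82. Folds from lists of different depth are not a measure of change, and at chr15:96731011-96731680 the Kelly folds overlapped, 6.46, 9.47 and 8.25 with shAhR-1 and 7.15, 5.05 and 7.31 with pLKO.

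The 16181 shared regions were also compared by rank. Ranked within lists of equal length, 1533 regions (9.47%) stood higher in every shAhR-1 list than in any pLKO list, and 1752 (10.8%) stood lower. No test was made of these counts, which alone do not show that strength changed. Their median widths, 1008 and 1044 bp, were close to the 1038 bp of all shared regions. Of the regions that stood higher 76.1% lay within 100 kb of another shared region, against 81.8% of those that stood lower and 79.5% of all shared regions, the same order as for gained and lost sites.

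The widest gaps in rank, named after they were seen, included both directions within the amplified stretch of chromosome 2. The peak at chr2:16460536-16461921 ranked 212, 1772 and 1404 with shAhR-1 and 12865, 11694 and 11473 with pLKO. The peak at chr2:16505915-16508704 ranked 6705, 7352 and 11335 with shAhR-1 and 1206, 252 and 159 with pLKO. Their folds were low, at most 3.44 and 3.28. Outside the stretch, chr20:21123726-21124831 ranked 3247, 3964 and 2841 with shAhR-1 and 21746, 20515 and 19294 with pLKO, and chr1:179060711-179061437 ranked 11366, 17015 and 16661 with shAhR-1 and 675, 2229 and 1736 with pLKO.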

How the data were processed

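Peak lists in the narrowPeak layout were used, 1 per library, on hg19. Per the submitters' processing notes, the tools included MACS2 2.1.0 and BWA 0.7.17 (also Trimmomatic 0.33, deepTools 3.1.3 and CASAVA 1.8.2). Settings, duplicate removal and any shift for the transposase are not stated in those notes and could change which peaks passed. The fold over local background is a ratio deposited by the authors for each peak, and the −log10 p and −log10 q values were deposited beside it. A library without a peak is one where no peak passed.

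Only chromosomes 1 to 22 and X entered. Lists were cut to equal length by −log10 p, ties going by position. Peaks that overlapped by 1 bp or more were merged into regions, and a region counted as present where a peak of that library touched it. Gained and lost regions needed a peak in 3 of 3 libraries of one group and in 0 of the other. Distance ran between region centres. Background was solved from each fold and p under a Poisson model with a pseudocount of 1, using folds of 1.5 and above; in the 6 compared libraries, at least 99.9977% of solved pileups were whole within 0.05. Depth was known only in this indirect form.

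Libraries were compared by two-sided exact permutation tests, with Benjamini-Hochberg adjustment over 3 measures; the Kelly comparison was a single test. Named regions were the first 10 per direction, ordered by absence from all full lists of the other group and then by their smallest fold in their own group. The regions and tests were chosen with earlier results of these data known. Functions were tested on simulated data. Gene positions on hg19 and genome sequence were not used here, so position relative to genes, the planned gene lists, marker genes and sequences are not analysed here, and distance to shared regions took their place. Python 3.11.15, numpy 2.4.6, pandas 2.3.3 and scipy 1.17.1 were used.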

Additional observations from a re-analysis of the deposited data

How the results depend on the processing

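The comparison of peak numbers gave log2 ratios from -0.53 to -0.13 when 1 library was left out, and that of covered length from -0.52 to 0.015. The width difference ran from -119 to 28.3 bp, and with full lists it turned to 24.0 bp. Gained regions ranged from 752 to 1181 and lost ones from 992 to 1361 when 1 library was left out, which loosens the rule. Full lists gave 169 gained and 887 lost regions, full lists limited to a −log10 q of 5 or above 78 and 641, the rule of 50% cover 323 and 669, and barring weaker peaks 81 and 219. A peak in at least 2 of 3 libraries gave 1858 gained and 1924 lost regions. Apart from that loosening, the cause of these moves was not tested. The Kelly difference ranged from 4.40 to 23.4 points when 1 library of either line was left out, was 20.7 points with full Kelly lists and 8.93 points for regions without weaker peaks, with exact permutation p = 0.1 each. The full Kelly lists had a peak at 27.7 ± 15.6% of gained regions with shAhR-1 and 26.9 ± 12.6% with pLKO (SD, n = 3 each). The 20.7 points came mostly from the lost regions, at 12.8 ± 9.46% and 32.8 ± 15.3%. All regions stood at 39.1 and 53.1%, in the same order. The shAhR-2 difference in BE2C was -11.6, 5.86 and 8.45 points without shAhR-1 replicates 1, 2 and 3, 17.97, 18.7 and 24.2 points without pLKO replicates 1, 2 and 3, was 7.28 points with full lists and 8.46 points without weaker peaks. Under the 50% rule 5 of the named regions lost part of their contrast; most other settings could not change it, as the choice of these regions fixes it.

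Same-numbered libraries did not deviate together (correlations of -0.25, -0.08 and -0.21 over log2 ranks of shared regions), so the numbers do not pair the samples. With a replicate block the log2 ratios were -0.28 for peak number and -0.24 for covered length, and the width difference was -52.0 bp (exact sign-flip p = 0.5, 0.75 and 1, where the smallest possible is 0.25). The share of peaks near a transcription start, the position shares and the gene lists were not run. The shortest list limited every region comparison.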
